A study of Mus musculus with 32 samples.

Results

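The IFIT genes encode interferon-induced proteins with tetratricopeptide repeats, and 4 of them were followed here: Ifit1, Ifit2, Ifit3 and Ifit3b. They were taken by symbol from the 20560 genes of the deposited table, and all 4 were found in it. They had been chosen by their deposited values, because their RNA was low in control cells at day 3 of fat cell differentiation and low in Zbtb9 knockdown cells at day 7. The control change from day 0 to day 3 and the knockdown difference at day 7 are therefore given as descriptions with no test.

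Interferons released by cells bind surface receptors and act through receptor kinases on a complex of transcription factors, which binds the interferon-stimulated response element in the promoters of its target genes. IFIT genes are among the most strongly induced of these targets and are low in most resting cells. Their proteins bind foreign RNA: Ifit1 holds RNA whose cap lacks the host's ribose methylation, Ifit2 binds AU-rich RNA, and Ifit3 forms complexes with the other family members. Ifit3b is a near-identical copy of Ifit3.

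The cells were 3T3-L1, a mouse embryo fibroblast line that is committed to become fat cells. RNA was sequenced in 32 libraries, with 4 scramble control (shCtrl), 2 shRNA #1 and 2 shRNA #2 libraries at each of days 0, 3, 7 and 11. Both short hairpin RNAs (shRNAs) target Zbtb9, which encodes a zinc finger protein with a BTB domain, and the knockdown arm of 4 libraries joins them. All arms received the same treatment: dexamethasone, 3-isobutyl-1-methylxanthine and insulin from day 0, insulin alone from day 3, and plain medium from day 7. Library titles number biological replicates without saying whether cultures were separate, so each p-value measures the spread between these libraries. In bulk RNA, fewer cells expressing a gene and less RNA per cell cannot be told apart.

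The 4 genes lie in 1 cluster on chromosome 19, all on the plus strand, in GENCODE M21 on GRCm38. Ifit2 (ENSMUSG00000045932) spans 34550694 to 34576419, Ifit3 (ENSMUSG00000074896) 34583531 to 34588731, Ifit3b (ENSMUSG00000062488) 34607970 to 34613401 and Ifit1 (ENSMUSG00000034459) 34640871 to 34650009. Promoter windows of 300 bases, 250 before to 50 after a transcript start, were available for all 4 from RefSeq on GRCm38.p6, 1 each for Ifit1, Ifit3 and Ifit3b and 2 for Ifit2. They were searched on both strands for 2 copies of TTTC set 2 bases apart (GAAA on the other strand), the core letters of the interferon-stimulated response element. At least 1 match stood in 3.44% of the 32851 windows in the table. The promoter stretches with the matches are shown to compare the members' promoters, and nothing about the RNA values is read from them. They lie at chr19:34583358-34583431 for Ifit3, chr19:34607754-34607827 for Ifit3b and chr19:34640770-34640828 for Ifit1, on the plus strand, and capitals mark the matches.
Ifit3: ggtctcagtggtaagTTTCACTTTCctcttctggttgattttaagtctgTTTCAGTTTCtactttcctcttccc
Ifit3b: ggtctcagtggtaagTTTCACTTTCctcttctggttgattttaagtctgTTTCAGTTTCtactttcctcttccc
Ifit1: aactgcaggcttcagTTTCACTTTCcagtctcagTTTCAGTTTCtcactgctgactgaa
Each of the 3 windows held 2 matches, with the same letters in the same order. The Ifit3 and Ifit3b stretches were identical over 74 bases. The matches began 156 and 122 bases before the RefSeq start of Ifit3, 188 and 154 before that of Ifit3b, and 104 and 85 before that of Ifit1, and these starts differ from the GENCODE starts given above. Neither Ifit2 window held these letters. A match of letters is a description of the sequence, not evidence of binding.

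Ifit3 and Ifit3b also shared much of their transcripts. Of all stretches of 50 bases in the Ifit3 transcript (1745 bases), 51.2% occurred unchanged in that of Ifit3b (2000 bases), and Ifit1 and Ifit2 shared none with any other member. Reads from the shared part cannot be assigned between the copies, and how such reads were counted is not given in the sources used here. Values of Ifit3 and Ifit3b are uncertain to that extent and are not independent of each other. The extent of the Ifit1bl1 gene in RefSeq, on the minus strand, covers Ifit3b and Ifit1, whereas in GENCODE it reaches neither. Whether counting used strand is not stated.

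Library depth was 22280363 to 31073726 reads in genes, rebuilt from the deposited log2 values as described under the processing. The targeted gene checks the labels: Zbtb9 had few reads in every library, with 6.35 to 22.3 normalized reads in control and 0 to 19.3 in knockdown. Knockdown means were 61.9%, 50.6%, 42.7% and 54.5% of control at days 0, 3, 7 and 11, and the arms overlapped at days 3 and 11. With both shRNAs as 1 arm, limma called Zbtb9 lower at day 7 (adjusted p 0.0288) and not at day 0 (0.271) or day 11 (0.173), and at day 3 it was under the filter. Taken separately at day 11, shRNA 2 was called lower (adjusted p 0.0228) and shRNA 1, at 88.5% of control, was not (0.734). At day 11 the 2 shRNA 1 libraries had 8.17 and 19.3 normalized Zbtb9 reads and overlapped the controls, whereas the 2 shRNA 2 libraries had 2.13 and 4.25 and lay below them. Levels below are normalized reads, meaning rebuilt reads divided by a library's size factor. Differences are on the deposited log2 scale, which draws low values towards a gene's mean and so understates changes that involve few reads.

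In control cells the RNA of all 4 genes was high at day 0, lowest at day 3 and higher again at day 7. Ifit1 stood at 4740, 3610, 3400 and 4756 normalized reads in the 4 control libraries at day 0 and at 66.3, 77.2, 55.5 and 75.5 at day 3. Ifit3 stood at 4443, 3472, 3165 and 4576 at day 0 and at 22.1, 21.2, 14.7 and 6.38 at day 3. No library of one day reached the range of the other for either gene.

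Ifit3b, the copy of Ifit3, had 2126, 1676, 1490 and 2207 normalized reads at day 0, and its 4 day 3 libraries held 2, 0, 9 and 5 reads before normalization. Ifit2 kept the most RNA, with 1446, 1454, 1432 and 1497 normalized reads at day 0 and 164, 122, 113 and 110 at day 3. The day 3 mean was 8.72% of the day 0 mean for Ifit2, 1.66% for Ifit1, 0.411% for Ifit3 and 0.225% for Ifit3b. The log2 differences were -3.24, -5.35, -6.43 and -5.95 in the same order. In control Ifit2 kept the largest share and the copies Ifit3 and Ifit3b the smallest. In knockdown the day 3 mean was 7.22% of day 0 for Ifit2 and 7.25% for Ifit1 with shRNA 1, and 8.17% and 5.18% with shRNA 2.

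After the hormone mix was replaced by insulin, control levels rose again. At day 7 the control means were 2170 ± 321 normalized reads for Ifit1, 993 ± 72.0 for Ifit2, 2530 ± 592 for Ifit3 and 1200 ± 220 for Ifit3b (SD, n = 4), which is 52.5%, 68.2%, 64.6% and 64.2% of day 0. At day 11 they were 4960 ± 448, 1350 ± 97.2, 7680 ± 900 and 3240 ± 313 (SD, n = 4). Day 11 was thus 120%, 92.9%, 196% and 173% of day 0, so the genes did not return to a common fraction of their starting level. These later values are given with no test, since the control libraries of days 0, 3 and 7 took part in choosing the genes.

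**Figure D1:**
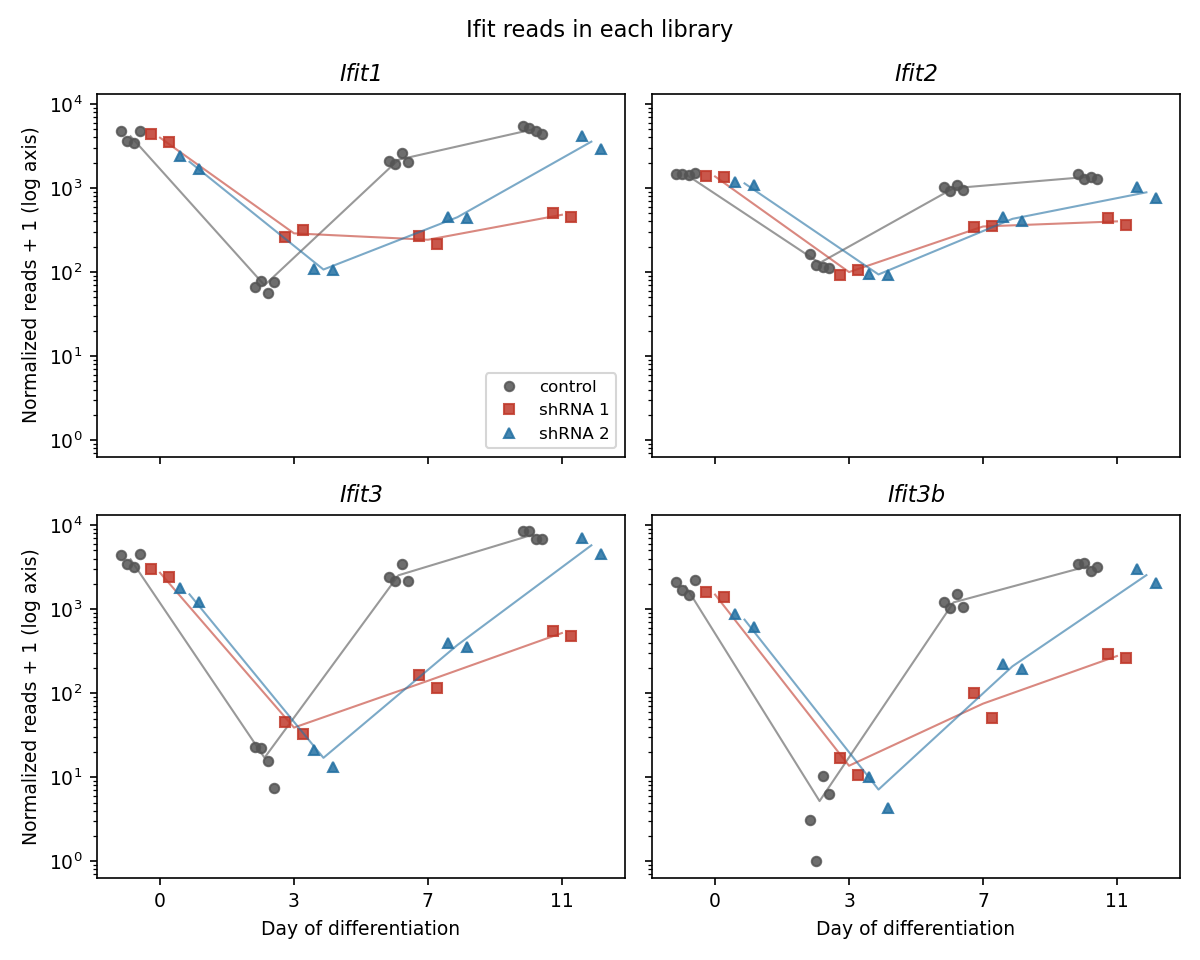
Normalized reads plus 1 on a log axis against day, with 1 panel per gene; each point is 1 library, lines join group means, and points are shifted sideways by arm. Control points fall to their lowest at day 3 and are higher again at day 7, while both shRNAs lie below control at day 7 and differ most from each other at day 11.

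At day 7, one of the times for which the genes were picked, the knockdown libraries had not regained these levels. Ifit1 stood at 267 and 216 normalized reads with shRNA 1 and 455 and 441 with shRNA 2, against 2101, 1921, 2637 and 2014 in control. Ifit3 stood at 165 and 114 with shRNA 1 and 390 and 357 with shRNA 2, against 2396, 2181, 3401 and 2141. Both genes had every knockdown library below every control library, and both had shRNA 1 below shRNA 2. Knockdown levels of Ifit3 had still risen since day 3, from 44.3 and 31.7 with shRNA 1 and 19.99 and 12.1 with shRNA 2. Ifit1 had risen with shRNA 2, from 107 and 105, but not with shRNA 1, which stood at 260 and 315 at day 3.

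Ifit3b stood at 98.4 and 49.9 with shRNA 1 and 220 and 196 with shRNA 2, against 1224, 1027, 1506 and 1053. Ifit2 stood at 342 and 353 with shRNA 1 and 450 and 407 with shRNA 2, against 1017, 917, 1082 and 957. Knockdown means were 15.9% of control for Ifit1, 39.1% for Ifit2, 10.1% for Ifit3 and 11.7% for Ifit3b, and the log2 differences were -2.57, -1.28, -3.26 and -3.01. The difference between the shRNAs is another contrast, but its libraries are among those by which the genes were picked, so it is not independent of that choice. It was called for all 4 genes. On the log2 scale shRNA 2 exceeded shRNA 1 by 0.82 ± 0.12 for Ifit1 (SE, limma adjusted p 7.83e-05), 0.28 ± 0.09 for Ifit2 (0.0413), 1.28 ± 0.25 for Ifit3 (0.0197) and 1.29 ± 0.24 for Ifit3b (0.00725). In this comparison limma called 7.52% of all genes tested higher with shRNA 2 and 8.90% lower, a gene being called at an adjusted p under 0.05. With single libraries left out, between 1 and 4 of the genes were called at day 7: 1 without shRNA 2 replicate 1, and 2 without shRNA 2 replicate 2 or shRNA 1 replicate 2. The Ifit2 call held in 6 of 15 alternatives, with adjusted p from 0.0202 to 0.259. On that day 6 of 10 adipocyte markers were called lower with shRNA 2 than with shRNA 1, and their part in the IFIT difference was not tested.

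The day 3 fall was also present in the knockdown libraries, which had no part in its choice. With shRNA 1, Ifit1 went from 4442 and 3489 normalized reads at day 0 to 260 and 315 at day 3, and with shRNA 2 from 2395 and 1703 to 107 and 105. Ifit3 went from 3013 and 2410 to 44.3 and 31.7 with shRNA 1, and from 1772 and 1231 to 19.99 and 12.1 with shRNA 2. The ranges of the 2 days did not overlap in any arm.

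Over the 16 knockdown libraries with the shRNA as a term, day 3 lay below day 0 by log2 differences of -3.74 ± 0.68 for Ifit1 (SE, limma adjusted p 0.000328), -3.34 ± 0.22 for Ifit2 (7.98e-09), -5.21 ± 0.72 for Ifit3 (3.18e-05) and -4.95 ± 0.67 for Ifit3b (2.64e-05). All 4 genes were called lower, where limma called 37.3% of all genes tested lower and 37.7% higher. The median was -4.34 over the 4 genes and 0.00 over all genes tested. The fall to day 3 thus took place with and without knockdown. At day 11 the knockdown libraries lay below their own day 0 by -1.01 ± 0.22 for Ifit2 (SE, limma adjusted p 0.00103), and the differences for Ifit1 (-1.07 ± 0.68), Ifit3 (-0.21 ± 0.72) and Ifit3b (-0.31 ± 0.67) were not called. Limma called 34.9% of all genes lower and 35.2% higher between these days. The joined arm averages opposite moves. With shRNA 1, Ifit3 went from 3013 and 2410 normalized reads at day 0 to 554 and 485 at day 11. With shRNA 2 it went from 1772 and 1231 to 7021 and 4478. Ifit1 and Ifit3b also fell with shRNA 1 and rose with shRNA 2.

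Before induction, the arms did not start alike. The 2 shRNA 2 libraries had less RNA of all 4 genes than every shRNA 1 and every control library, with Ifit3 at 1772 and 1231 normalized reads against 3013 and 2410 for shRNA 1 and 3165 to 4576 for control. How many of all genes separate in this way was not counted, and the copies Ifit3 and Ifit3b can share reads. Against control, shRNA 2 was lower by log2 differences of -0.98 ± 0.22 for Ifit1 (SE, limma adjusted p 0.0392), -0.34 ± 0.05 for Ifit2 (1.06e-05), -1.34 ± 0.23 for Ifit3 (0.0153) and -1.27 ± 0.22 for Ifit3b (0.0172). All 4 genes were called lower, where 10.2% of all genes were called lower and 7.38% higher. Leaving out any 1 of the 8 libraries left 1 to 3 genes called, with 1 left without shRNA 2 replicate 2, and the Ifit1 call held in 7 of 15 alternatives (limma adjusted p up to 0.231). The control libraries of day 0 helped to pick the genes for being high before the fall, so a lower value beside them is not independent of that choice. With shRNA 1 none was called, at log2 differences from -0.50 for Ifit3 to -0.05 for Ifit1 and unadjusted p from 0.077 to 0.834, where 18.9% of all genes were called lower and 15.8% higher. Limma's voom on rebuilt reads called 2 of the 4 genes there.

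The difference between the shRNAs needs no control library, but its error comes from the 3-group fit and so also rests on the control libraries of day 0. At day 0 shRNA 2 was called lower than shRNA 1 for 3 of the 4 genes: Ifit1 (-0.93 ± 0.26, SE, limma adjusted p 0.0423), Ifit2 (-0.26 ± 0.06, 0.000816) and Ifit3b (-0.97 ± 0.26, 0.0377). Ifit3 differed by -0.84 ± 0.27 and was not called (0.0634). Limma called 16.4% of all genes lower and 18.6% higher with shRNA 2. Leaving out any 1 library left 1 or 2 genes called, with 1 left for each of 5 libraries (shRNA 1 replicate 1 or 2, shRNA 2 replicate 2, control replicate 1 or 2). With both shRNAs as 1 arm, none of the 4 genes was called at day 0, where limma called 2.44% of all genes lower and 0.817% higher. The unadjusted p was under 0.05 for Ifit2, Ifit3 and Ifit3b, 3 genes were called with the shRNAs as separate groups, and 1 was called without shRNA 1 replicate 1.

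At day 3 Ifit1 was higher in every knockdown library than in any control library. Its knockdown libraries held 260 and 315 normalized reads with shRNA 1 and 107 and 105 with shRNA 2, all above the control range of 55.5 to 77.2. Ifit2 had 92.0, 106, 92.9 and 92.2 normalized reads in knockdown against 110 to 164 in control, a difference that was not called with both shRNAs as 1 arm.

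With both shRNAs as 1 arm, Ifit1 was called higher at day 3 (1.09 ± 0.33, SE, limma adjusted p 0.044), where 14.6% of all genes were called higher and 12.1% lower. The Ifit1 call was lost without shRNA 1 replicate 1, without any 1 of the 4 control libraries, and in 1 fit of all 32 libraries. Ifit2 at -0.32 ± 0.12 (0.0575), Ifit3 at 0.29 ± 0.17 (0.229) and Ifit3b at 0.22 ± 0.13 (0.24) were not called. With 0 to 14 reads a library, Ifit3b was too low on this day for its test to decide. Taken separately, shRNA 1 was called higher for Ifit1 (1.71 ± 0.13, 3.77e-13) and Ifit3 (0.58 ± 0.16, 0.00346), where 20.6% of all genes were called higher and 18.7% lower. With shRNA 2, Ifit1 was called higher (0.48 ± 0.13, 0.00431) and Ifit2 lower (-0.36 ± 0.14, 0.0421), where 16.8% of all genes were called higher and 14.5% lower. The Ifit2 call with shRNA 2 was lost in 8 of 15 alternatives, and that of Ifit3 with shRNA 1 in 2 of 15, one of them the fit without shRNA 1 replicate 1. The control libraries of day 3 helped to pick the genes for being low there, so a higher value beside them is not independent of that choice.

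Between the shRNAs at day 3 no control library is needed for the difference, but its error also rests on the control libraries of that day. Ifit1 was lower with shRNA 2 than with shRNA 1 by -1.23 ± 0.15 (SE, limma adjusted p 6.8e-08) and Ifit3 by -0.58 ± 0.18 (0.0222), where limma called 8.94% of all genes lower and 10.6% higher. The Ifit3 call rests on 39, 30, 20 and 11 reads, and it was lost in 7 of 15 alternatives. Ifit2 (-0.08 ± 0.16) and Ifit3b (-0.28 ± 0.18) were not called.

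At day 11 the knockdown arm split by shRNA, and this was the largest difference between the shRNAs over the 4 days for each of the 4 genes. Ifit1 had 510 and 449 normalized reads with shRNA 1 and 4184 and 2933 with shRNA 2, against 5418, 5236, 4773 and 4429 in control. Ifit3 had 554 and 485 with shRNA 1 and 7021 and 4478 with shRNA 2, against 8467, 8454, 6906 and 6898. For Ifit3 the first shRNA 2 library lay inside the control range, and both shRNA 1 libraries lay far below it.

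Ifit3b had 292 and 260 normalized reads with shRNA 1 and 3005 and 2073 with shRNA 2, against 3448, 3524, 2839 and 3148 in control. Ifit2 had 435 and 365 with shRNA 1 and 1013 and 761 with shRNA 2, against 1486, 1295, 1365 and 1269. Means with shRNA 1 were 9.65% of control for Ifit1, 29.5% for Ifit2, 6.76% for Ifit3 and 8.52% for Ifit3b. Means with shRNA 2 were 71.7%, 65.5%, 74.9% and 78.4% in the same order.

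Against shRNA 1, shRNA 2 was higher by 2.75 ± 0.16 for Ifit1 (SE, limma adjusted p 9.24e-06), 1.07 ± 0.12 for Ifit2 (2.64e-05), 3.30 ± 0.22 for Ifit3 (0.000151) and 3.02 ± 0.16 for Ifit3b (3.69e-06). All 4 genes were called higher, where 11.6% of all genes were called higher and 10.4% lower, and they were called in each of the 15 alternatives tried for this comparison. The median was 2.88 over the 4 genes and -0.01 over all genes tested. The shRNA with less Ifit RNA at day 11 was the one with more Zbtb9 reads on that day. That Zbtb9 difference, shRNA 2 minus shRNA 1, rested on few reads and was not called (-0.42 ± 0.18, SE, limma adjusted p 0.12).

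Against control at day 11, shRNA 1 was called lower for all 4 genes: by -3.23 ± 0.13 for Ifit1 (SE, limma adjusted p 1.74e-07), -1.66 ± 0.10 for Ifit2 (9.75e-09), -3.74 ± 0.19 for Ifit3 (7.08e-06) and -3.38 ± 0.14 for Ifit3b (7.54e-08). Limma called 22.2% of all genes lower and 21.4% higher there. With shRNA 2, Ifit1 (-0.48 ± 0.13, 0.0223) and Ifit2 (-0.59 ± 0.10, 0.000395) were called lower, and Ifit3 (-0.43 ± 0.19, 0.123) and Ifit3b (-0.36 ± 0.14, 0.071) were not, where 19.4% of all genes were called lower and 17.4% higher. All 4 genes were called in voom on rebuilt reads and without shRNA 2 replicate 1, and 1 gene without shRNA 1 replicate 1, without shRNA 1 replicate 2 or without shRNA 2 replicate 2.

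With both shRNAs as 1 arm, the day 11 comparison called Ifit2 alone (-1.12 ± 0.30, SE, limma adjusted p 0.0255), where 16.2% of all genes were called lower and 16.8% higher. Ifit1 (-1.85 ± 0.78, 0.122), Ifit3 (-2.08 ± 0.94, 0.143) and Ifit3b (-1.87 ± 0.86, 0.15) had larger differences and larger errors, since the 4 knockdown libraries of each spanned the gap between the shRNAs. With the shRNAs as separate groups, in 1 fit of all 32 libraries or in voom on rebuilt reads, all 4 genes were called. Leaving out shRNA 1 replicate 1 or control replicate 1, 2 or 3 left none called, and leaving out shRNA 2 replicate 1 left 2 called.

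**Figure D2:**
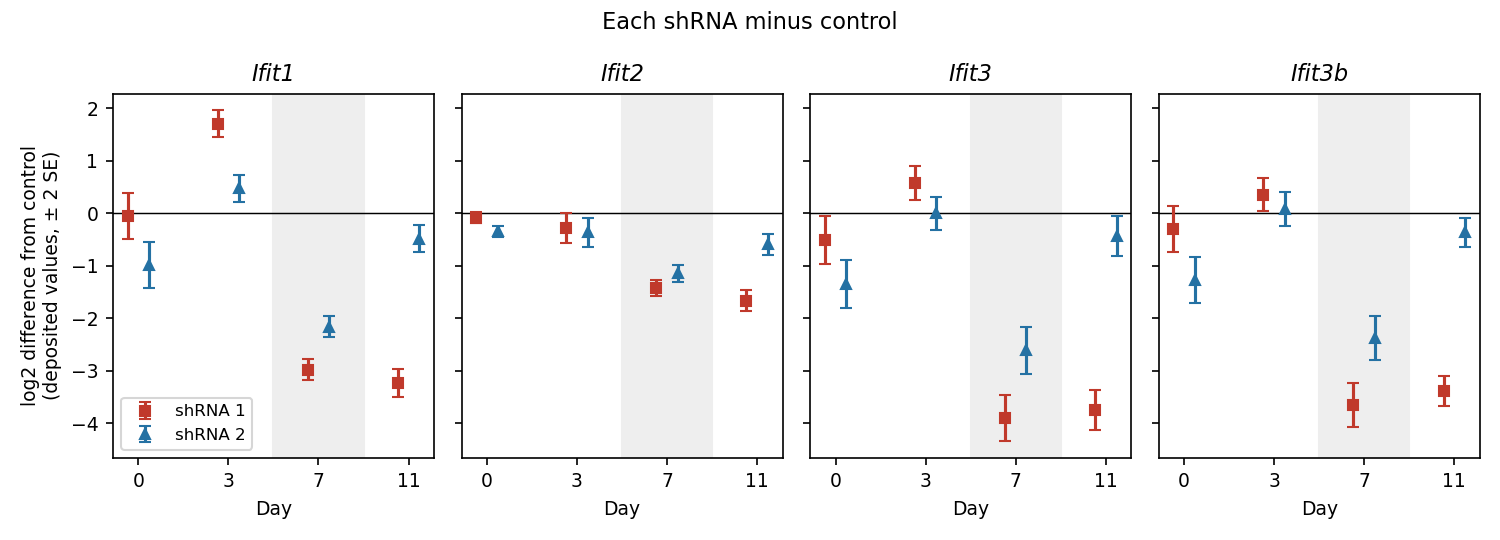
Log2 difference of each shRNA from control on the deposited scale, by day, with 1 panel per gene; points are estimates from 3-group limma fits, bars are 2 SE to each side, and grey marks day 7, one of the times for which the genes were picked. For Ifit1, Ifit3 and Ifit3b at day 11, shRNA 1 stands more than 3 log2 units below control and shRNA 2 less than 1 unit below.

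Ordered by mean level over the 12 groups, Ifit1 ran from control day 11 through control day 0, shRNA 1 day 0, shRNA 2 day 11, control day 7, shRNA 2 day 0, shRNA 1 day 11, shRNA 2 day 7, shRNA 1 day 3, shRNA 1 day 7 and shRNA 2 day 3 to control day 3. Library ranges overlapped in 6 of the 11 pairs of neighbours in that order. The clear steps were those from shRNA 2 day 11 to control day 7, from shRNA 2 day 0 to shRNA 1 day 11, from shRNA 2 day 7 to shRNA 1 day 3, from shRNA 1 day 7 to shRNA 2 day 3, and from there to control day 3. For Ifit3 the order ran from control day 11 through shRNA 2 day 11, control day 0, shRNA 1 day 0, control day 7, shRNA 2 day 0, shRNA 1 day 11, shRNA 2 day 7, shRNA 1 day 7, shRNA 1 day 3 and control day 3 to shRNA 2 day 3, with overlap in 4 of 11 pairs. Overlap was found in 5 of 11 pairs for Ifit3b and 4 of 11 for Ifit2.

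Per kilobase of exon, Ifit3 was the most abundant member and Ifit2 the least wherever the genes were high. In control cells at day 0, Ifit3 made up 43.9% ± 0.585 of the summed normalized reads per kilobase, Ifit1 30.4% ± 0.470, Ifit3b 18.3% ± 0.418 and Ifit2 7.41% ± 1.16 (SD, n = 4). At day 3 Ifit2 made up 46.3% ± 3.94, Ifit1 37.5% ± 6.58, Ifit3 12.9% ± 4.94 and Ifit3b 3.26% ± 3.34 (SD, n = 4). Ifit3 thus held the largest share at day 0 and Ifit2 at day 3 in control cells, and at day 11 Ifit3 again held 53.4% ± 0.921 (SD, n = 4).

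The knockdown libraries did not follow the control make-up at day 3, where Ifit2 held a mean of 15.6% of the sum with shRNA 1 and 31.2% with shRNA 2 against 46.3% in control. At day 7 Ifit2 held 26.3% and 34.4% of the sum in the 2 shRNA 1 libraries and 18.1% and 18.5% in the 2 shRNA 2 libraries, against 6.94% to 8.85% in control. At day 11 it held 13.9% and 14.5% with shRNA 1 and 3.51% and 3.95% with shRNA 2, against 3.70% to 4.62% in control. On both days the shRNA 1 libraries, which were lowest in Ifit3, had the highest shares of Ifit2. At day 3, Ifit1 held 63.3% and 70.4% of the sum with shRNA 1, 50.4% and 55.3% with shRNA 2 and 31.0% to 45.4% in control, with no overlap between the arms.

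Ifit3b had fewer reads than Ifit3 in each of the 32 libraries, and the ratio moved between days and arms. Ifit3b reads were 47.1% to 48.3% of Ifit3 reads in the control libraries of day 0, 44.3% to 51.1% at day 7 and 40.7% to 45.6% at day 11. With shRNA 1 the ratio was 53.1% and 57.3% at day 0 and 52.8% and 53.6% at day 11, above the control range on both days. At day 7 it was 43.9% and 59.5% with shRNA 1, on both sides of the control range, and 54.9% and 56.5% with shRNA 2, above it. At day 3 the pooled ratio over all 8 libraries was 31.7%, from 51 and 161 reads. How far the counting of shared reads sets this ratio was not tested.

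**Figure D3:**
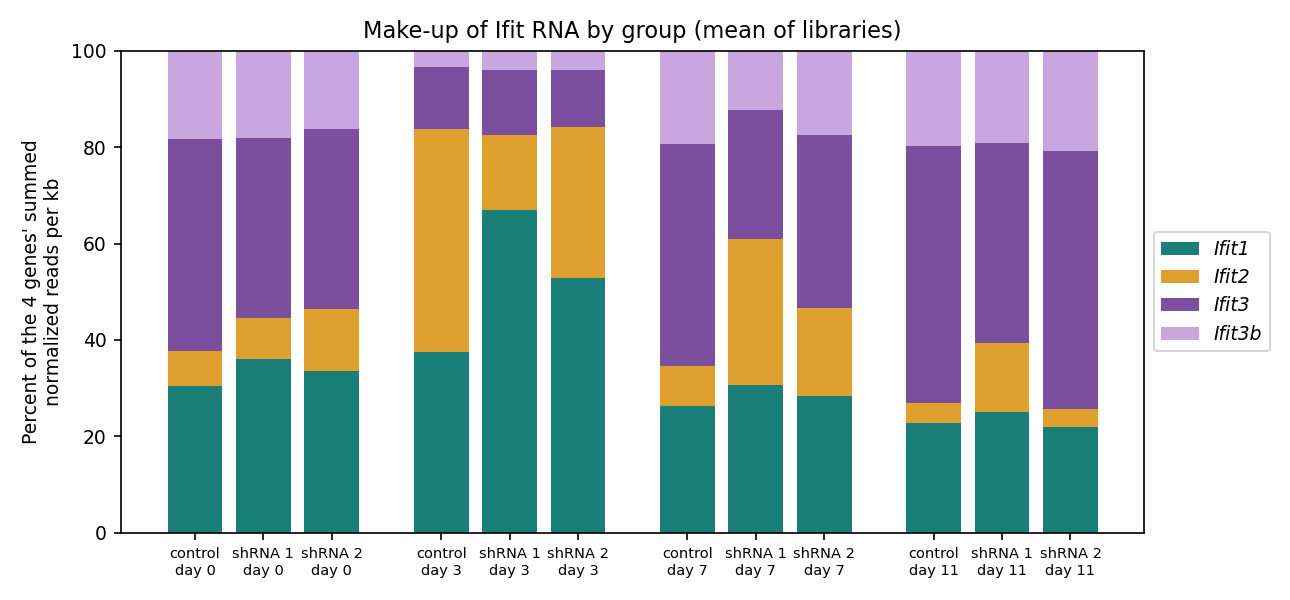
Stacked bars of each member's percent of the 4 genes' summed normalized reads per kilobase, as the mean of the libraries of a group, for 12 groups ordered by day. Ifit2 holds 46.3% in control at day 3 and between 3.73% and 14.2% in the 3 arms at day 11.

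Neighbouring genes of the cluster did not all follow. Of 7 neighbours in the table, 4 passed the filter on low values. Ifit1bl2, a further family member on the minus strand with 1 RefSeq promoter window that overlaps that of Ifit1 by 245 bases and so holds the same 2 matches and another that holds none, had means of 193, 3.44, 120 and 247 normalized reads in control at days 0, 3, 7 and 11. With shRNA 1 its means were 149, 20.7, 13.3 and 27.3, and with shRNA 2 they were 95.7, 5.39, 36.6 and 180. It was called higher with shRNA 2 than with shRNA 1 at day 11 (2.00 ± 0.18, SE, limma adjusted p 1.28e-06). Whether its transcript shares stretches, and so reads, with the members was not examined. Lipa, which encodes lysosomal acid lipase, differed by 0.22 ± 0.06 in the same direction (0.0199), while Kif20b (-0.61 ± 0.16, 0.0126), a mitotic kinesin, and Pank1 (-0.51 ± 0.13, 0.0097), a pantothenate kinase, were lower. Ifit1bl1, the other minus-strand family member, had 1 match in each of its 2 windows, a mean of at most 21.5 normalized reads in any group, and did not pass the filter.

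The rest of the interferon pathway was read from lists chosen with earlier results of these data known. RNA for the ligands was near absent. Of 16 interferon and receptor genes 7 were in the table, and Ifnb1, the gene of interferon beta, had 23 reads over all 32 libraries, with at most 9 in 1 library. It was at 0 reads in all 8 libraries of day 3, and the counts were too low for a comparison. Of the 5 receptor genes that passed the filter, only Ifnar2, a chain of the type I interferon receptor, was called between the shRNAs at day 11 (0.19 ± 0.06 higher with shRNA 2, SE, limma adjusted p 0.037), where 11.6% of all genes were called higher and 10.4% lower. In knockdown cells from day 0 to day 3, 4 receptor genes were called lower and 1 higher (37.3% and 37.7% of all genes), led by Ifngr1, a chain of the interferon gamma receptor (1.11 ± 0.05), and Ifngr2 (-0.98 ± 0.07).

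The list of sensors of foreign nucleic acid, which start interferon production, moved in part. It also holds adaptors and kinases that pass on their signal and the transcription factor Irf3, so its counts are not of sensors alone. Of 15 on the list 14 were in the table and 13 passed the filter. At day 11, 9 of these 13 were called higher with shRNA 2 than with shRNA 1 and none lower, with a median log2 difference of 0.40, where 11.6% of all genes were called higher and 10.4% lower. The largest differences were those of Dhx58 (1.90 ± 0.11, SE, limma adjusted p 1.6e-08), a regulator of the cytosolic RNA sensors, and Zbp1 (1.77 ± 0.16, 1.85e-06), a sensor of Z-form nucleic acid. From day 0 to day 3 in knockdown cells 8 were called lower and 3 higher (37.3% and 37.7% of all genes), with Dhx58 at -3.49 ± 0.42 and Zbp1 at -2.74 ± 0.36.

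Among 9 signal transducers, 6 were called higher with shRNA 2 at day 11, 1 lower and 2 not, with a median of 0.60, where 11.6% of all genes were called higher and 10.4% lower. Irf7, a transcription factor that amplifies the interferon response, differed by 1.88 ± 0.11 (SE, limma adjusted p 3.47e-08). Against control, shRNA 1 had 7 of the 9 called lower and 1 higher (22.2% and 21.4% of all genes), with Irf7 at -1.96 ± 0.09. With shRNA 2, 3 were called lower and 1 higher (19.4% and 17.4% of all genes), led by Irf1, an interferon-induced transcription factor (0.40 ± 0.08), and Stat2 (-0.34 ± 0.07). From day 0 to day 3 in knockdown cells 6 were called lower and 2 higher (37.3% and 37.7% of all genes), with Irf7 at -4.08 ± 0.44 and Stat2 at -2.80 ± 0.28.

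The other interferon-induced effectors, proteins that block viral growth or mark other proteins, had the same direction as the IFIT genes at day 11. Of 30 on the list all were in the table and 29 passed the filter. At day 11 all 29 were called higher with shRNA 2 than with shRNA 1, with a median of 1.43 against -0.01 over all genes tested, of which 11.6% were called higher. Oasl2, an antiviral protein of the oligoadenylate synthetase family, differed by 2.49 (limma adjusted p 4.1e-07), and Ifi44, an interferon-induced cytosolic protein, by 2.43 (2.24e-05).

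Against control at day 11, shRNA 1 had all 29 effectors called lower (median -1.68; 22.2% of all genes) and shRNA 2 had 14 lower and none higher (median -0.23; 19.4% of all genes called lower). At day 0, shRNA 2 had 14 of 29 called lower (median -0.69; 10.2% of all genes), led by Oas2 (-1.34, limma adjusted p 0.0166) and Rsad2 (-1.14, 4.94e-06), both antiviral enzymes, while shRNA 1 had 1 called lower (median -0.02; 18.9% of all genes). At day 3, shRNA 1 had 13 of 28 called higher and 1 lower (median 0.17; 20.6% and 18.7% of all genes), with Oasl2 at 1.12 and Gbp2, an interferon-induced GTPase, at 1.08. With shRNA 2 on that day 2 were called higher and 5 lower (median -0.07; 16.8% and 14.5% of all genes). From day 0 to day 3 in knockdown cells, 26 of 29 were called lower and 1 higher (median -2.69; 37.3% and 37.7% of all genes). These comparisons share libraries with each other.

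Feedback regulators, which limit interferon signalling, were mixed. At day 11, 4 of 9 were called higher with shRNA 2 than with shRNA 1 and 1 lower (median 0.29), where 11.6% of all genes were called higher and 10.4% lower. Usp18, which removes Isg15 from proteins and blocks the receptor, differed by 2.2 ± 0.09 (SE, limma adjusted p 4.92e-10), and Socs1, an inhibitor of the receptor kinases, by 0.94 ± 0.13 (0.000115). Against control, 5 were called lower and 2 higher with shRNA 1 (22.2% and 21.4% of all genes), with Usp18 at -2.54 ± 0.08 and Adar, an RNA-editing enzyme, at -1.02 ± 0.05. With shRNA 2, 4 were called lower and 1 higher (19.4% and 17.4% of all genes), led by Cish, an inhibitor of cytokine receptor signalling, at 1.12 ± 0.08 and Nlrc5 at -0.39 ± 0.13, with Usp18 at -0.34 ± 0.08.

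**Figure D4:**
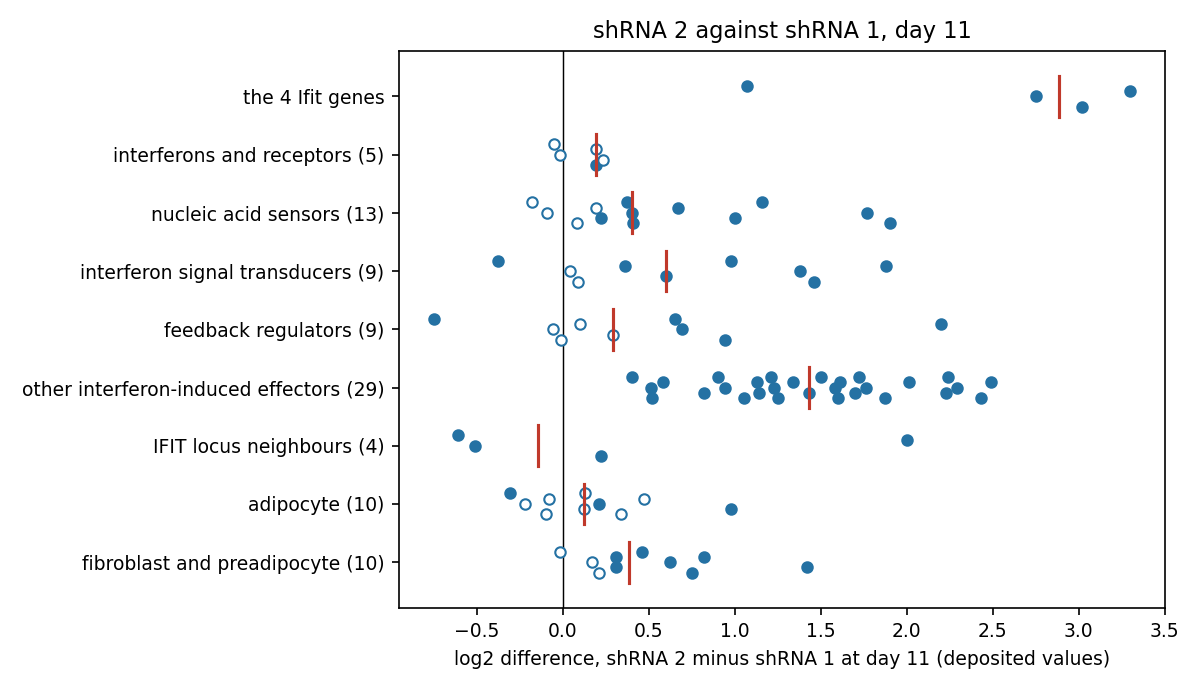
Log2 difference of shRNA 2 minus shRNA 1 at day 11 for each gene that passed the filter, by list, with the number of genes in brackets; filled points were called by limma, open points were not, and red bars are medians. The 4 IFIT genes lie between 1.07 and 3.30, and the 29 other effectors are filled and to the right of 0.

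Over all 32 libraries the genes whose log2 values followed the mean of the 4 IFIT genes most closely, among 12051 compared, were Isg15 (Pearson r 0.993), Trim30a (0.992), Irgm1 (0.992), Cmpk2 (0.992), Ifi44 (0.991) and Ifi47 (0.990). These libraries share arms and days, which set most of that likeness. After the means of the 12 groups were taken off, close genes were Tor1aip2 (0.856), Ifi47 (0.849), Armh1 (0.845), Igtp (0.833) and Ddx60 (0.820). Among the members themselves, levels had r from 0.952 for Ifit1 with Ifit2 to 0.998 for Ifit3 with Ifit3b. Within groups r was 0.253 for Ifit2 with Ifit3b, 0.480 with Ifit1 and 0.575 with Ifit3, and it was 0.705 to 0.800 for the other 3 pairs, of which the copies Ifit3 and Ifit3b can share reads.

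Other cell types were checked by their markers. Of 12 leukocyte markers 7 were in the table, and Ptprc, Fcer1g and Itgax were at or below 3 reads in every library. The summed normalized reads of the 7 ranged from 352 to 1039, with Cd14 and Cd68 the largest part. At day 11 the sum was 881 and 1039 with shRNA 1, 900 and 932 with shRNA 2 and 678 to 804 in control. The 6 endothelial markers summed to at most 100 normalized reads. Adipocyte markers were high with both shRNAs: their sum at day 11 was 126000 and 150200 with shRNA 1, 125300 and 138100 with shRNA 2 and 58970 to 69230 in control, and against control 9 of 10 were called higher with shRNA 1 (21.4% of all genes) and 10 of 10 with shRNA 2 (17.4% of all genes). At day 7, where IFIT RNA was low in knockdown, the adipocyte sum was 211100 and 216100 with shRNA 1, 145100 and 174900 with shRNA 2 and 52200 to 56820 in control. With shRNA 2 against shRNA 1 on that day, Lpl (-0.64) and Adipoq (-0.58) were among the 6 called lower, and Cd36 (0.77) was the 1 called higher. Fibroblast and preadipocyte markers summed to 745800 to 782800 in control at day 0 and to 306200 to 336400 at day 3, when IFIT RNA was low. Lum (2.15), Thy1 (0.72) and Dcn (0.37) were higher at day 3 on the log2 scale, and the other 7 markers were lower. Markers of this list were called higher with shRNA 2 than with shRNA 1 for 7 of 10 genes at day 11 (median 0.39), where 11.6% of all genes were called higher and 10.4% lower. The part of these differences in the IFIT values was not tested.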

How the data were processed

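RNA-seq libraries of 3T3-L1 cells were made with an Illumina TruSeq kit, per the labels' protocols. TopHat2 2.1.0, Bowtie2 2.2.6, SAMtools 1.3.1 and HTSeq 0.6.1 were used, per the submitters' processing notes. Genome build, annotation, strand setting and normalization are not given in the sources used here. The deposited table holds log2 values (-1.56 to 17.99) in the form of a regularized log transform, as the values show. Inverting that form gave whole reads within 0.1 for 99.3% of values (20% by chance) and for all 128 values of the 4 genes.

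Limma 3.58.1 (R 4.3.3) was fitted to the deposited log2 values using its robust empirical Bayes step and a trend of variance on mean level. Genes needed 2 to the power of the value of at least 10 in 4 libraries. P-values were Benjamini-Hochberg adjusted over all genes tested in each of 15 comparisons. Knockdown against control used 8 libraries per day, single shRNAs a 3-group fit, and the time course 16 libraries. The fits were tested on simulated data. All 4 genes passed the filter in every comparison. At day 3 Ifit3b did so with 0 to 14 reads a library, since the deposited scale draws its low values towards its mean over all days. Passing the filter there does not show that it was well measured. Named genes were the 4 members, Zbtb9, the cluster's neighbours, the 2 largest changes of each list and the 6 genes most alike by each measure, of which 1 is not reported here. Members and lists were chosen with earlier results of these data known. Alternatives were no filter, no trend, equal totals, 1 fit of 32 libraries, separate shRNAs, no shRNA term, a replicate block and leaving out libraries. Voom on rebuilt reads, log2 of normalized rebuilt reads plus 1 and shRNA by day groups were chosen after seeing the data. Reads without molecular identifiers cover counting error only.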

Additional observations from a re-analysis of the deposited data

Results flagged for a closer look

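Within the 4 knockdown libraries of day 3, the deposited Ifit2 value of shRNA 1 replicate 2 stood apart from the other 3. Its gap to the nearest of them was 0.953 of the whole range, above Dixon's limit for 4 samples. Of 32 groups examined this was the 1 past the limit, and chance alone puts about 1 in 20 past it. The library had 106 normalized reads against 92.0 to 92.9 in the other 3, a narrow range.

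The effect of knockdown differed between the shRNAs in limma's 3-group fits, with values given as the effect of shRNA 2 minus that of shRNA 1 on the log2 scale. At day 0 the difference was -0.93 for Ifit1, -0.26 for Ifit2 and -0.97 for Ifit3b. At day 3 it was -1.23 for Ifit1 and -0.58 for Ifit3. At day 7 it was 0.82 for Ifit1, 0.28 for Ifit2, 1.28 for Ifit3 and 1.29 for Ifit3b. At day 11 it was 2.75 for Ifit1, 1.07 for Ifit2, 3.30 for Ifit3 and 3.02 for Ifit3b. The sign turned between day 3 and day 7. Each shRNA had 2 libraries a day, and the change of the difference between days was not tested.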

How the results depend on the processing

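The count of IFIT genes called was the same, or within 1.5 times, in most alternatives; the counts that moved follow, and their causes were not tested. With both shRNAs as 1 arm, day 0 went from 0 to 3 called with the shRNAs as separate groups. Day 3 went from 1 to 0 in 1 fit of all 32 libraries and to 2 with separate groups. Day 11 went from 1 to 4 in 1 fit of all 32 libraries, with separate groups and in voom on rebuilt reads. Knockdown day 11 against day 0 went from 1 to 2 with shRNA by day groups. For shRNA 1 against control at day 0, voom called 2. For shRNA 2 against control, voom called 4 at day 11, and at day 3 the count went from 2 to 1 with no filter, with no trend, in voom and in log2 of reads plus 1. For shRNA 2 against shRNA 1 at day 3, the same 4 settings and the fit of 32 libraries gave 1 in place of 2. The described control fall from day 0 to day 3 had a median of -5.65 on the deposited scale, -6.95 in voom and -6.92 in log2 of reads plus 1.

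Leaving out single libraries gave 0 to 1 called for knockdown against control at day 0, 0 to 1 at day 3 and 0 to 2 at day 11. It gave 1 to 3 for shRNA 1 against control at day 3, and 1 to 3, 1 to 2 and 1 to 4 for shRNA 2 against control at days 0, 3 and 11. For shRNA 2 against shRNA 1 it gave 1 to 2 at day 0, 1 to 2 at day 3 and 1 to 4 at day 7. At day 11 this comparison kept 4 called without any library.

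Sign changes were limited to differences that were not called. Ifit3 in knockdown at day 11 against day 0 was 0.14 and 0.03 without the day 0 libraries of shRNA 1 (replicates 1 and 2) and 0.21 and 0.28 without those of day 11, and its lowest value was -0.78, without day 11 shRNA 2 replicate 1. Ifit3b was 0.04 without day 0 shRNA 1 replicate 1 and 0.07 and 0.13 without those of day 11, and its lowest value was -0.81, without day 11 shRNA 2 replicate 1. Ifit1 with shRNA 1 at day 0 was 0.12 without shRNA 1 replicate 2 and 0.02 without control replicate 1 or 4, and its lowest value was -0.22, without shRNA 1 replicate 1. Ifit3 with shRNA 2 at day 3 was 0.00, and it was -0.01 with equal totals, -0.17 with the replicate block, and -0.09, -0.01 and -0.10 without shRNA 2 replicate 1, control replicate 3 and control replicate 4, with 0.09 without shRNA 2 replicate 2.

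The replicate numbers were not taken to pair the samples, since not every pair had a correlation over 0.1. Same-numbered knockdown and control libraries had deviations from their group means correlated at r from -0.01 to 0.21 over 16 pairs. At day 11, 3 of the 4 pairs were over 0.1 (0.21, 0.13 and 0.14) and the other was 0.00; libraries of day 0 and later days had r of -0.05 to 0.04. With the replicate number as a block, knockdown against control had 0 called at days 3 and 11, shRNA 1 against control 2 at day 0, and shRNA 2 against control 4 in place of 2 at day 11. Depth limits the day 3 values of Ifit3b, at 0 to 14 reads a library.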
